A study of Mus musculus with 31 samples.

Results

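The comparison described here sets the uterine response to 17β-estradiol (E2) in the wild-type mice of one line against that in the wild-type mice of another. Its measure is the response of MISS WT (E2 minus placebo) minus the response of AF2 WT (E2 minus placebo), taken from the group labels. It rests on 16 of the 31 arrays of the study and on 27047 genes. The other 15 arrays, from homozygous mutants of both lines, entered the model for the shared estimate of the spread, and those of the MISS mutant also chose the genes of a response score. AF2 WT mice were on the C57BL6/J background and MISS WT mice on C57BL6/N, so the line and the substrain cannot be told apart here. Ovaries were removed at 4 weeks of age, normal chow was given for 3 weeks, and uteri were taken 6 h after castor oil under the skin that held 0 or 8 µg/kg of E2. Each of the 4 groups, AF2 WT placebo, AF2 WT E2, MISS WT placebo and MISS WT E2, had 4 arrays. Each of the 4 slides carried 1 array of each group, so every difference could also be computed within a slide. The labels do not say that the replicates were separate animals, and p-values measure only the spread between these samples.

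E2 enters cells and binds estrogen receptor α (ERα, gene Esr1), which in the nucleus acts on genes through activation functions that recruit coactivators, and which also signals from the plasma membrane. In the uterus without ovarian hormone, a single dose of E2 starts a fast wave of transcription, fluid uptake and protein synthesis, and cell division follows later. The AF2 mutation removes one of these activation functions and the MISS mutation removes the membrane receptor, but the wild types compared here carry neither. The substrains C57BL/6J and C57BL/6N have been bred apart for many generations and differ at known genes, among them Nnt, the mitochondrial transhydrogenase.

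Levels are log2 signals relative to the 75th percentile of the array, which was 569 to 1042 intensity units on the 16 arrays. It was 569 to 820 on AF2 WT placebo arrays and 791 to 1042 on MISS WT placebo arrays. With E2 it was 622 to 891 in AF2 WT and 674 to 825 in MISS WT. Signals well above background came from 65.8% to 76.9% of probes, with saturation at 0 spots. A call means an adjusted p under 0.05 in limma, after Benjamini-Hochberg correction over all genes tested. In a principal component analysis of the 16 arrays, component 1 held 62.6% of the variance and separated E2 from placebo. Component 2 held 11.4% and separated the placebo arrays of the lines: those of AF2 WT lay at −58.0, −51.5, −68.1 and −13.3, and those of MISS WT at 38.6 to 59.2. The AF2 WT placebo array of slide 4 thus lay nearer the other line than its 3 replicates did. Without it, 1971 genes were called more positive and 840 more negative in MISS WT, against 1723 and 841 with it. Component 3 held 6.55% and followed the slides, with positive values on all arrays of slides 1 and 2 and negative values on all arrays of slides 3 and 4. The main model had no term for the slide, which was added as a block in an alternative. Component 4, with 4.30%, separated the E2 arrays of the lines, at −37.6 to −21.0 for AF2 WT and 18.2 to 41.5 for MISS WT.

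Most of the response to E2 was shared by both wild types. In AF2 WT, 7467 genes rose and 8127 fell (27.6% and 30% of the genes tested), and in MISS WT 9497 rose and 7340 fell (35.1% and 27.1%). The genes called in both and in the same direction numbered 12922, which is 82.9% of those called in AF2 WT and 76.7% of those called in MISS WT. Of these, 6806 rose and 6116 fell. For 10296 of the 12922 (79.7%), the 95% confidence interval of the difference lay within 2-fold in either direction, against 66.1% of all genes.

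The largest shared increases whose difference stayed within that limit included enzymes, receptors and secreted factors. Mthfd2, a mitochondrial one-carbon enzyme, rose by 6.51 ± 0.29 in AF2 WT and by 6.56 ± 0.29 in MISS WT (log2 change ± SE, 4 arrays per group). Its placebo levels were −3.23, −4.39, −3.53 and −4.11 on slides 1 to 4 in AF2 WT and −3.54, −2.95, −3.48 and −4.37 in MISS WT. Its E2 levels were 2.67, 2.36, 2.86 and 2.88 in AF2 WT and 2.96, 3.10, 3.21 and 2.62 in MISS WT. The E2 levels of both lines overlapped, and so did the placebo levels, and the 95% interval of the difference ran from −0.79 to 0.89. Ramp3, which pairs with the calcitonin receptor-like receptor to form an adrenomedullin receptor, rose by 5.55 and 5.49 in AF2 WT and MISS WT. Pgf, a growth factor for blood vessels, rose by 5.45 and 5.26, and Ngfr, the low-affinity neurotrophin receptor, by 4.89 and 5.12. Padi1 and Padi2, which turn peptidyl-arginine into citrulline, rose by 4.87 and 4.76 in AF2 WT and by 5.19 and 4.91 in MISS WT. The hair keratin gene Krt81 rose by 5.74 and 5.31, and Phyhip by 5.02 and 4.73.

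Shared decreases were smaller. Lrrc17, a secreted protein with leucine-rich repeats, had placebo levels of 3.45, 3.72, 3.35 and 3.14 in AF2 WT and 3.84, 3.17, 3.41 and 3.14 in MISS WT. Its E2 levels were −0.35, −0.40, −0.73 and −1.06 in AF2 WT and −0.53, −0.57, −0.91 and 0.28 in MISS WT. The decrease was thus seen on every slide in both lines, with overlapping groups at both ends, and the responses were −4.05 and −3.82. Tmem140 fell by 3.70 and 3.72, Sesn1, a stress-induced regulator of the kinase mTORC1, by 3.42 and 3.32, Wdr86 by 3.44 and 3.32, and Nrep by 3.34 and 3.32. Mxi1, a partner of Max that opposes Myc, was well above background on 0 of the 8 E2 arrays, so its fall is only bounded, at least 3.31-fold in AF2 WT and at least 3.84-fold in MISS WT. Pabpc4l and Smad9 fell by 4.14 and 3.32 in AF2 WT and by 3.69 and 3.60 in MISS WT, with 2 of the 4 AF2 WT and 3 of the 4 MISS WT E2 arrays well above background for each.

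Textbook targets of ERα behaved alike in part. Pgr, the progesterone receptor, had placebo levels of 2.06, 2.12, 1.67 and 1.91 in AF2 WT and 1.82, 1.96, 1.91 and 1.65 in MISS WT. With E2 it reached 4.40, 4.38, 4.34 and 4.35 in AF2 WT and 4.44, 4.30, 4.37 and 4.08 in MISS WT. The groups overlapped at both ends, and the difference of responses was 0.04 with a 95% interval of −0.29 to 0.36. Greb1, an ERα cofactor induced by the receptor, rose by 4.34 and 4.22, but its interval of −1.42 to 1.19 leaves room for a difference of more than 2-fold. The cell-cycle inhibitor Cdkn1a rose by 4.23 and 3.87 and the angiogenic factor Vegfa by 3.97 and 3.64, without a call in the difference. For Fos, an immediate early gene, the responses were 3.47 and 2.56, with a difference of −0.91 ± 0.63 (adjusted p = 0.415). Ltf, C3 and Ccnd1 were called in neither wild type. Esr1 itself had a difference of −0.15 ± 0.17 (adjusted p = 0.658).

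Igf1, the growth factor that carries part of the mitogenic effect of E2 in the uterus, rose by 2.87 in AF2 WT and by 3.47 in MISS WT, and the difference of 0.60 ± 0.18 was called (adjusted p = 0.0318). The difference was 0.58, 0.73, 0.55 and 0.56 on slides 1 to 4, so each slide gave nearly the same value. However, 1 of 5 Igf1 probes was called, with differences over the 5 probes of 0.19 to 0.60. The call was also lost without AF2 WT E2 replicate 1, AF2 WT placebo replicate 2, MISS WT placebo replicates 1 and 3 or MISS WT E2 replicates 2 and 3, each left out alone, with an adjusted p of up to 0.0753. Myc, which drives growth and ribosome synthesis, rose by 1.19 and 1.68, with a difference of 0.50 ± 0.14 (adjusted p = 0.0233). The E2 arrays of both lines were alike for Myc (a difference between lines of −0.01), while the placebo arrays differed by −0.50. Its call was lost without MISS WT placebo replicate 1 or 3 or without MISS WT E2 replicate 3, with adjusted p = 0.0594, 0.0589 and 0.0529.

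The size of the response was compared with a score over genes chosen on other arrays. It used the 3501 genes raised and the 3544 lowered by E2 at least 2-fold in the MISS mutant, which shares the line and substrain of MISS WT, and took the mean response of the raised genes minus that of the lowered genes. The score was 2.94, 3.19, 3.02 and 2.85 on slides 1 to 4 in AF2 WT and 3.74, 3.36, 3.59 and 3.40 in MISS WT. The score of MISS WT was higher on all 4 slides, least so on slide 2. Genes that respond in the line of MISS WT pass this choice and genes particular to AF2 WT do not, which favours a larger score in MISS WT, so the size of this difference is a description. The means were 3.00 ± 0.147 and 3.52 ± 0.176 (SD, n = 4), a difference of 0.521 ± 0.264, so that the score of MISS WT was 117% of that of AF2 WT. The raised part was 1.46 ± 0.0748 against 1.80 ± 0.0965. The lowered part was −1.54 ± 0.0748 against −1.72 ± 0.0817, and on slide 2 it was no larger in MISS WT (−1.64 in AF2 WT and −1.63 in MISS WT). Of the 12922 genes called alike in both wild types, 8397 (65.0%) had the larger response in MISS WT.

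**Figure D1:**
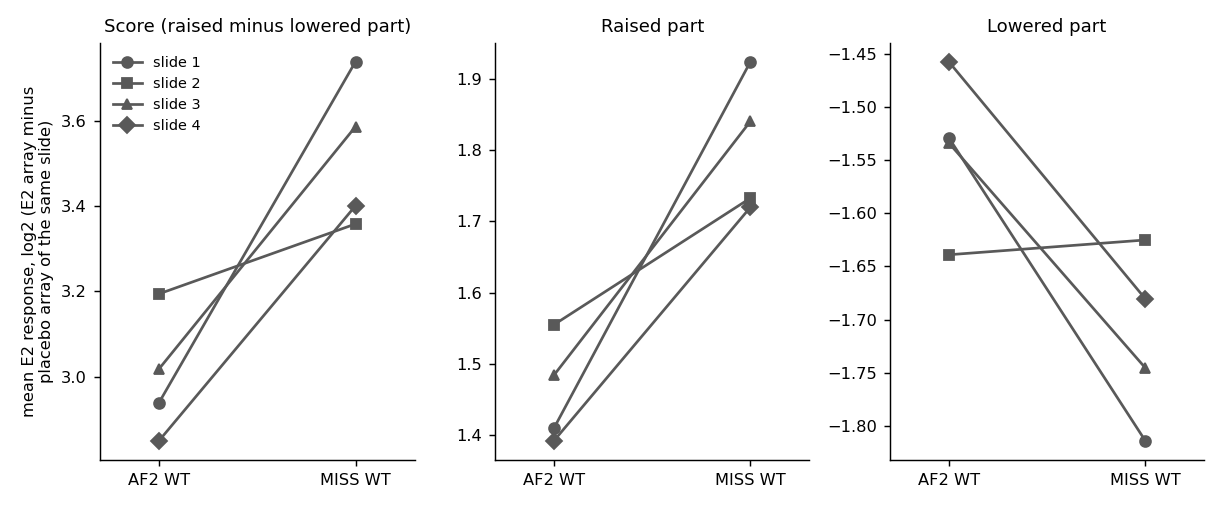
Response score of both wild types, computed within each slide as the E2 array minus the placebo array (y axis, log2 units); the panels show the whole score, the genes raised and the genes lowered. Each line joins the AF2 WT and MISS WT values of 1 slide: the score spans 2.85 to 3.19 in AF2 WT and 3.36 to 3.74 in MISS WT, and in the lowered part slide 2 is flat.

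The difference of responses was called for 2564 genes (9.48% of those tested), of which 1723 (6.37%) were more positive and 841 (3.11%) more negative in MISS WT. The difference was at least 2-fold for 1141 of them, 911 more positive and 230 more negative. The split between directions depended on the scaling: 67.2% of called genes were more positive here, 57.8% with the percentile taken over probes well above background on all arrays, 51.4% with the authors' normalized values and 48.9% with quantile normalization. The median difference over all genes was 0.11, and it was 0.0019 with quantile normalization.

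Among the 1723 genes that were more positive in MISS WT, 421 rose in both lines and rose more in MISS WT, and 126 fell in both and fell less in MISS WT. Another 448 were called in MISS WT alone, 423 in AF2 WT alone, 302 fell in AF2 WT and rose in MISS WT, and 3 were called in neither. Among the 841 that were more negative, 556 fell in both lines and fell more in MISS WT, 86 rose in both and rose less, 124 were called in MISS WT alone and 62 in AF2 WT alone. In 12 of them the gene rose in AF2 WT and fell in MISS WT, and 1 was called in neither.

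**Figure D2:**
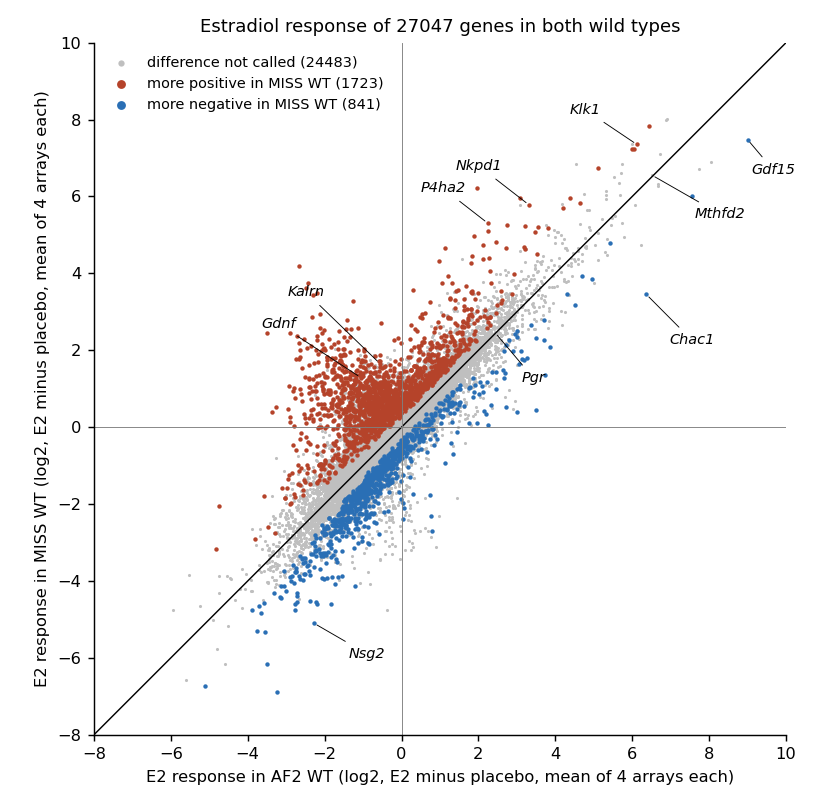
E2 response in AF2 WT (x axis) against MISS WT (y axis), in log2 units from the means of 4 arrays per group, for 27047 genes; grey points were not called in the difference, red points (1723) were more positive and blue points (841) more negative in MISS WT, and the line marks equal responses. Most genes follow the line, P4ha2 and Kalrn lie above it, Chac1 and Nsg2 below it, and Pgr and Mthfd2 on it.

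A difference of responses can arise at the placebo end, at the E2 end or at both, and the 2 directions differed in this. Of the 1723 more positive genes, 897 differed between the lines on the placebo arrays alone, 659 on the E2 arrays alone, 48 on both and 119 on neither by their own tests. Of the 841 more negative genes, 74 differed on placebo alone, 663 on E2 alone, 49 on both and 55 on neither. Genes with a mean level below −2, which are dim on this array, were 10627 of the 27047 tested. They made up 882 of the 1723 more positive calls and 154 of the 841 more negative calls. Of those 882, 630 differed on the placebo arrays alone. Among the 841 more positive genes with a level above −2, the order was the other way, with 504 differing on E2 alone and 267 on placebo alone. Among the 687 more negative genes above −2, 546 differed on E2 alone and 57 on placebo alone.

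**Figure D3:**
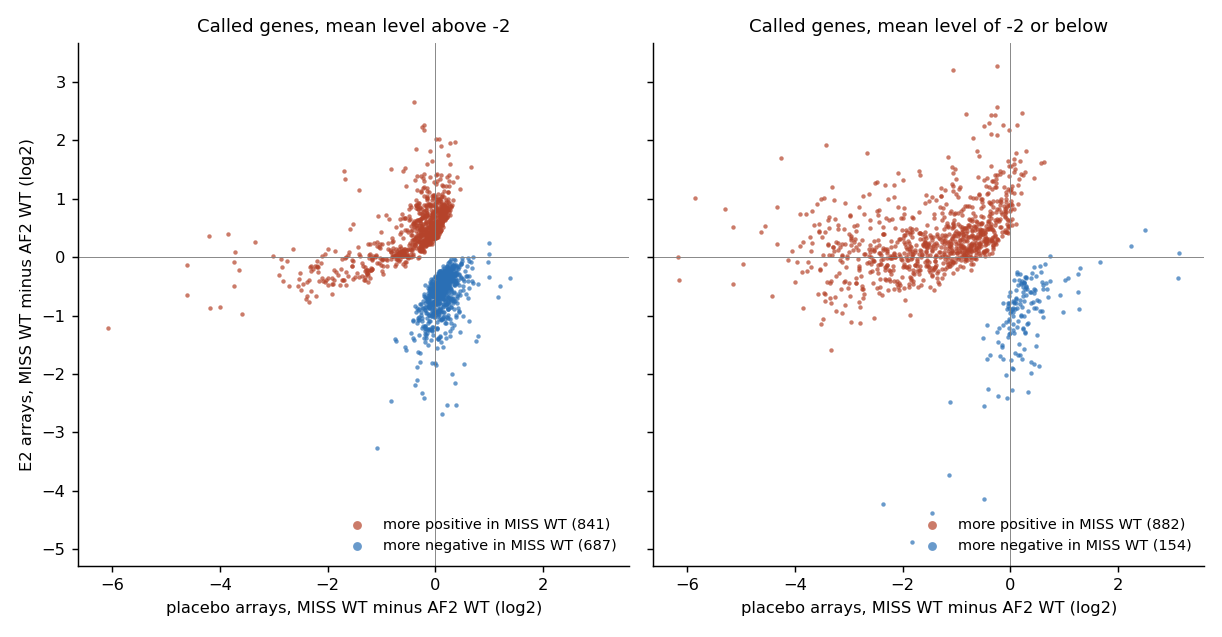
MISS WT minus AF2 WT on the placebo arrays (x axis) and on the E2 arrays (y axis), in log2 units, for genes called in the difference of responses, with mean level above −2 (left) or at −2 or below (right); red genes were more positive and blue genes more negative in MISS WT. On the left most points spread along the E2 axis, and on the right most of the 882 red points lie at negative placebo values.

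Some of the largest positive differences at levels above −2 arose on the E2 arrays. P4ha2, an α-subunit of the prolyl hydroxylase that matures collagen (probe at chr11:53945032-53945091, mm9), had placebo levels of 1.24, 0.83, 1.32 and 1.01 in AF2 WT and 0.62, 1.22, 0.68 and 0.28 in MISS WT. With E2 it reached 4.05, 3.58, 3.05 and 2.69 in AF2 WT and 6.16, 5.93, 6.18 and 5.74 in MISS WT. The placebo groups overlapped and the E2 groups did not, with every MISS WT array above every AF2 WT array. P4ha2 thus rose by 2.24 ± 0.22 in AF2 WT and by 5.31 ± 0.22 in MISS WT, a difference of 3.06 ± 0.31 (adjusted p = 1.24e-06).

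Nkpd1, a gene for a putative NTPase, rose in both lines, from −4.45 to −3.87 on placebo to −1.56 to 0.07 on E2 in AF2 WT and from −4.78 to −4.04 to 1.24 to 1.59 in MISS WT. Its difference was 2.47 ± 0.34 (adjusted p = 4.3e-05). Efnb3, an ephrin ligand that signals between touching cells, rose by 1.27 in AF2 WT and 3.35 in MISS WT, with E2 levels of 2.74 to 3.58 and 4.6 to 4.80 that did not overlap. Its difference was 2.08 ± 0.23 (adjusted p = 3.64e-06). For Atp12a, a proton-potassium pump, and Col26a1, a collagen, the response was called in MISS WT alone. Atp12a had E2 levels of −2.54 to −1.69 in AF2 WT and −0.67 to −0.18 in MISS WT, and its responses were 0.21 ± 0.27 and 2.30 ± 0.27. Col26a1 had E2 levels of −3.56 to −1.56 and −0.25 to 0.10, and its responses were −0.19 ± 0.32 and 2.28 ± 0.32. The differences were 2.09 ± 0.38 for Atp12a (adjusted p = 0.000798) and 2.47 ± 0.45 for Col26a1 (adjusted p = 0.000821).

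Kalrn and Gdnf were called in opposite directions in the 2 wild types. Kalrn, a guanine nucleotide exchange factor, had placebo levels of 1.61, 1.57, 1.68 and 1.37 in AF2 WT and 0.98, 1.24, 1.15 and 1.40 in MISS WT. With E2 it stood at 0.88, 1.46, 0.62 and 1.04 in AF2 WT and at 2.99, 3.01, 2.73 and 2.67 in MISS WT. The E2 groups lay apart by more than either group's spread, while the placebo groups overlapped slightly. Its responses were −0.56 ± 0.14 and 1.65 ± 0.14, with a difference of 2.22 ± 0.20 (adjusted p = 2.03e-07). Each of its 7 probes was called in the same direction, with differences of 1.56 to 2.22. The fall in AF2 WT belongs to the brightest probe, since the responses of the other 6 there were −0.10 to 1.41. Gdnf, a neurotrophic factor of the transforming growth factor β superfamily, had a response of −1.05 ± 0.24 in AF2 WT and 1.29 ± 0.24 in MISS WT, and a difference of 2.34 ± 0.34 (adjusted p = 8.53e-05). Here the placebo levels also differed, at −0.66 to 0.33 in AF2 WT and −1.16 to −0.65 in MISS WT (a difference between lines of −0.83, adjusted p = 0.0223).

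**Figure D4:**
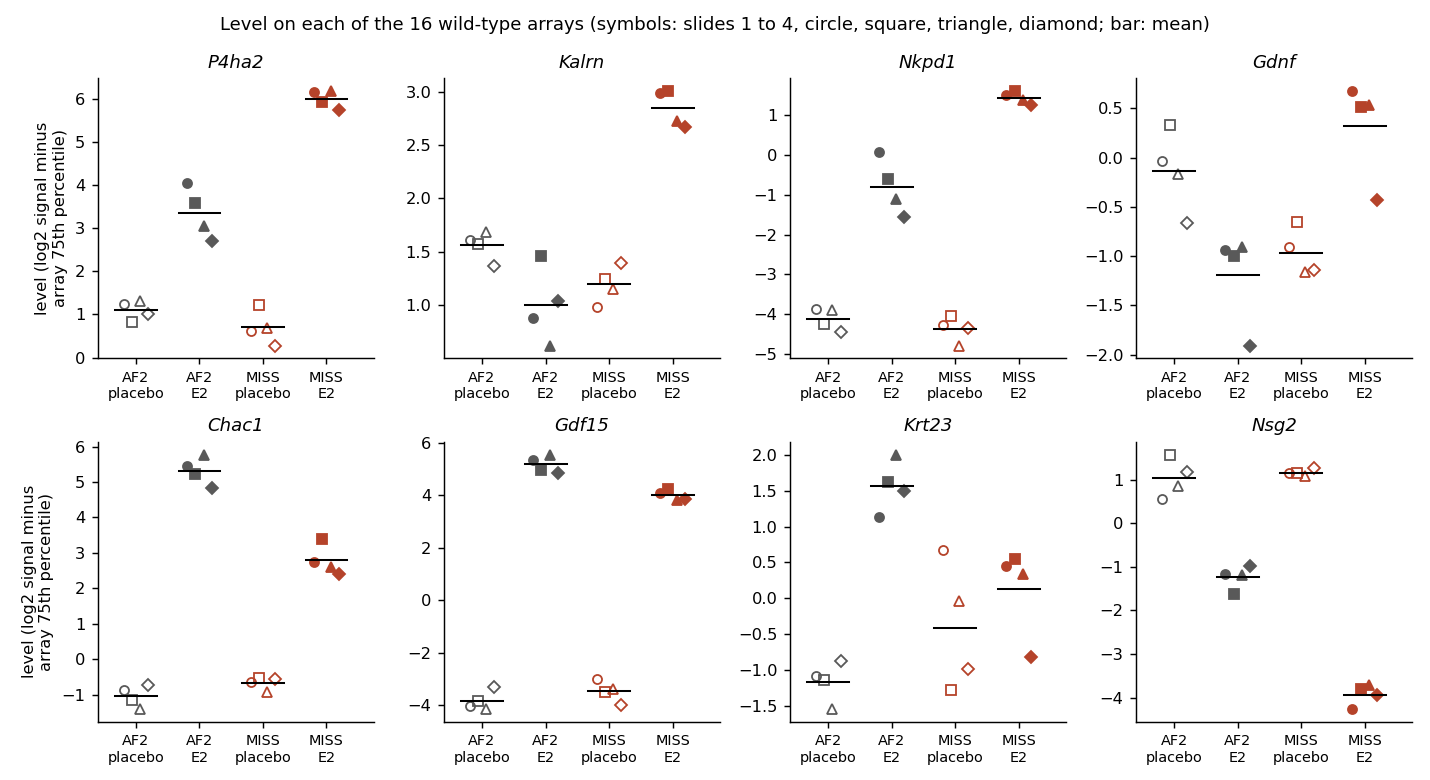
Levels of 8 genes (y axis, log2 signal minus the 75th percentile of the array) on each of the 16 wild-type arrays, by group; symbols mark slides 1 to 4 and bars the mean of 4 arrays. On the E2 arrays P4ha2, Kalrn, Nkpd1 and Gdnf are higher in MISS WT, and Chac1, Gdf15, Krt23 and Nsg2 are higher in AF2 WT.

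Genes of protein folding and genes of the amino acid stress response were raised by E2 in both lines, and members of both groups differed between the lines. When protein load in the endoplasmic reticulum (ER) rises, the unfolded protein response turns on chaperone genes, in part through the ER stress element of their promoters. When amino acids run short or translation is checked, the integrated stress response acts through ATF4, which binds CCAAT-enhancer-ATF type elements. The promoters of 3 genes described next are printed here, Chac1 for the stress response and Creld2 and Hspa5 for the chaperones. They are the 250 bases before the RefSeq start, on the plus strand of GRCm38.p6, at chr2:119350992-119351241, chr15:88819396-88819645 and chr2:34771840-34772089. Capitals mark an ATF4-type motif in Chac1 and an ER stress element in the others.
Chac1: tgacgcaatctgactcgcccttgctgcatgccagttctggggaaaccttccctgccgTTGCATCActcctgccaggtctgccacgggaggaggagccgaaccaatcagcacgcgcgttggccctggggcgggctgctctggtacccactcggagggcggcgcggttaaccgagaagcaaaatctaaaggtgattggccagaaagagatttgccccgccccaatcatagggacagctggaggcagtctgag
Creld2: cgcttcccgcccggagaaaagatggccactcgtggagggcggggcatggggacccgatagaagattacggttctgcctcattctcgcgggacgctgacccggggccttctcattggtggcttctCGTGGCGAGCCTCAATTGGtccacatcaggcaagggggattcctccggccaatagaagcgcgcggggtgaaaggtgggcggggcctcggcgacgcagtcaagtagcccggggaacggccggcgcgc
Hspa5: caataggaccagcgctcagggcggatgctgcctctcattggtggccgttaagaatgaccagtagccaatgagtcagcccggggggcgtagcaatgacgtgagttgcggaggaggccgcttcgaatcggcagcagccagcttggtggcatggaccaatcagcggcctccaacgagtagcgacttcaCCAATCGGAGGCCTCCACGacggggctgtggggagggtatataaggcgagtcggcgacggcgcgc

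The motif in Chac1 begins 193 bases before the start and matches on the opposite strand, that in Creld2 begins 126 bases before it on the opposite strand, and that in Hspa5 lies 65 bases before it on the printed strand. Both strands of 32851 RefSeq promoters of this length were searched. The ER stress element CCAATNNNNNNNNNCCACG was in 37 of them (0.113%), and 7 of the 19 ER chaperone genes with a promoter in the table held it. These were Calr, Canx, Creld2, Dnajc3, Hsp90b1, Hspa5 and Pdia6, of which Creld2, Dnajc3 and Hspa5 were called in the difference, Dnajc3 with a call that was lost in 9 of the 16 fits with 1 array left out (adjusted p of up to 0.0917) and with quantile normalization (adjusted p = 0.154). The ATF4-type motif TGATGNAA was in 1134 promoters (3.45%) and in 6 of the 19 stress-response genes with a promoter there (Asns, Chac1, Fgf21, Pycr1, Slc7a11 and Vldlr), of which Chac1 was called. A consensus estrogen response element, GGTCANNNTGACC, was in 21 of all promoters (0.0639%) and in 0 of the 27 estrogen-induced uterine genes with a promoter in the table. A match describes these letters only.

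Of 21 ER chaperone and unfolded protein response genes tested, 18 rose with E2 in AF2 WT and all 21 rose in MISS WT. The difference was more positive in MISS WT for 8 of them and more negative for 0, beside 6.37% and 3.11% of all genes, and its median was 0.46 against 0.11 for all genes. By slide the median was 0.56, 0.03, 0.25 and 0.90, so slide 2 showed almost no difference. Creld2, a disulfide isomerase induced by ER stress, had E2 levels of 5.08, 5.74, 5.17 and 4.86 in AF2 WT and 6.02, 5.89, 5.86 and 6.28 in MISS WT, from placebo levels of 3.03 to 3.33 and 3.06 to 3.33. Its E2 groups did not overlap, yet the AF2 WT array of slide 2 lay close to the MISS WT arrays, and the differences by slide were 0.91, −0.08, 0.74 and 1.68. The difference was 0.81 ± 0.19 (adjusted p = 0.0082).

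Hspa5, the main Hsp70 chaperone of the ER, had placebo levels of 4.26 to 4.70 in AF2 WT and 4.46 to 4.63 in MISS WT. Its E2 levels were 6.26, 6.71, 6.30 and 6.10 in AF2 WT and 7.03, 6.96, 7.12 and 7.19 in MISS WT. Again the E2 groups did not overlap and slide 2 was closest. The difference was 0.59 ± 0.17 (adjusted p = 0.0236), and the call was lost without AF2 WT E2 replicate 4 (adjusted p = 0.0586) or AF2 WT placebo replicate 4 (adjusted p = 0.0501). Dnajb9, a cochaperone that restrains the stress sensor IRE1, differed most clearly. Its E2 levels of 1.24, 1.63, 1.40 and 1.36 in AF2 WT lay within or just above the placebo range of 1.20 to 1.42, while those in MISS WT were 2.44, 2.29, 2.58 and 2.61 against 1.31 to 1.52 on placebo. Dnajb9 was called in MISS WT alone, with a difference of 0.95 ± 0.12 (adjusted p = 1.88e-05) that was positive on all 4 slides, and its second probe gave 1.07. P4hb, a disulfide isomerase that is also the β-subunit partner of P4ha2, rose by 0.36 and 0.82 (difference 0.46 ± 0.11, adjusted p = 0.00679, and 0.067 with quantile normalization). Manf, a factor secreted under ER stress, rose by 2.03 and 2.86 (difference 0.82 ± 0.22, adjusted p = 0.0189, and 0.0505 with quantile normalization), with a difference of 0.00 on slide 2.

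The count of ER chaperones was 5 to 9 when each array was left out in turn, lowest without either AF2 WT array of slide 4, 3 with quantile normalization and 13 with slide as a block. None was called more negative in any of these fits. Xbp1, the transcription factor of the response, and Calr and Herpud1 rose in both lines with differences of 0.11, 0.08 and 0.10 that were not called. Among 20 tRNA synthetases, which charge tRNAs with amino acids, 19 rose in each line, 4 were more positive in MISS WT and 0 more negative, beside 6.37% and 3.11% of all genes. Nars rose by 2.49 and 3.18 and Mars1 by 2.31 and 2.86. That count was 2 without MISS WT E2 replicate 3 and 2 with quantile normalization. Of 28 ribosome biogenesis genes, 27 rose in each line and 0 were called in the difference, beside 9.48% of all genes. Their median difference of 0.12 was close to that of all genes.

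The 20 genes of the integrated stress response and of the one-carbon pathway that it feeds all rose in both lines, with 3 more positive and 4 more negative in MISS WT and a median difference of −0.04, beside 6.37% and 3.11% of all genes and a median of 0.11. Under the other scalings 3 were more positive and 6 to 7 more negative, with medians of −0.163 to 0.061, the latter with normexp background correction. The 4 called in the main fit as rising less in MISS WT were Chac1, Gdf15, Sesn2 and Cebpb. Chac1, an enzyme that degrades glutathione (probe at chr2:119179990-119180049, mm9), had placebo levels of −0.87, −1.16, −1.41 and −0.73 in AF2 WT and −0.65, −0.53, −0.92 and −0.57 in MISS WT. With E2 it reached 5.46, 5.22, 5.78 and 4.84 in AF2 WT and 2.75, 3.39, 2.60 and 2.41 in MISS WT. All AF2 WT arrays with E2 lay above all MISS WT arrays, while the placebo groups overlapped. Chac1 rose by 6.37 ± 0.24 and by 3.45 ± 0.24, a difference of −2.91 ± 0.35 (adjusted p = 8.63e-06).

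Gdf15, a secreted stress hormone that lowers appetite, rose most steeply of the 4. Its E2 levels were 5.34, 4.96, 5.55 and 4.83 in AF2 WT and 4.09, 4.25, 3.82 and 3.85 in MISS WT, from placebo levels of −4.15 to −3.31 and −4.01 to −2.99. The E2 groups did not overlap, and the responses of 9.0 and 7.48 differed by −1.52 ± 0.41 (adjusted p = 0.0179). Sesn2, a leucine sensor that restrains mTORC1, reached 3.51 to 3.92 in AF2 WT and 2.47 to 2.97 in MISS WT, with a difference of −0.93 ± 0.19 (adjusted p = 0.00208). Cebpb, a transcription factor that partners ATF4, rose by 2.96 and 2.43 (difference −0.53 ± 0.12, adjusted p = 0.0044). The 3 that rose more in MISS WT were enzymes. Aldh1l2, of mitochondrial folate metabolism, rose by 1.81 and 3.07, with differences of 1.23, 1.32, 1.26 and 1.20 on slides 1 to 4 (1.25 ± 0.18, adjusted p = 8.76e-05). Mthfd1l, of the same pathway, rose by 1.82 and 3.07 (difference 1.25 ± 0.24, adjusted p = 0.0012). Psph, the last enzyme of serine synthesis, rose by 2.60 and 3.32, and its call was lost without 1 of 6 arrays (MISS WT E2 replicate 1, 2 or 3, AF2 WT E2 replicate 2 or 4, or MISS WT placebo replicate 3), with adjusted p of up to 0.0643. A second Psph probe gave a difference of 0.53 without a call. Atf4 itself had a difference of −0.37 and Trib3, an inhibitor that ATF4 induces, of −1.06, and neither was called (adjusted p = 0.279 and 0.0552).

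**Figure D5:**
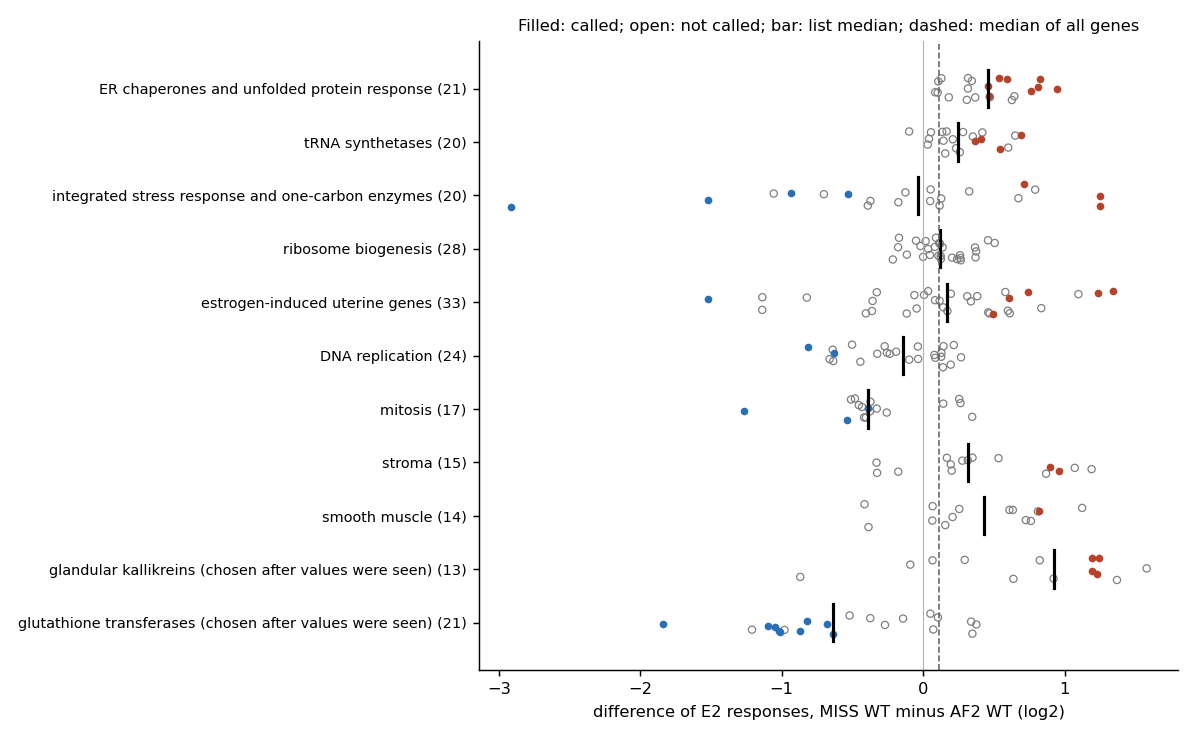
Difference of E2 responses (x axis, MISS WT minus AF2 WT, log2) for the members of 11 groups of genes; filled points were called, open points were not, bars are group medians and the dashed line is the median of all genes at 0.11. ER chaperones lie to the right with 8 of 21 called, the stress-response genes are called on both sides, and glutathione transferases lie to the left with 9 of 21 called.

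Other genes rose less or not at all in MISS WT. Krt23, a keratin of simple epithelia, reached 1.13, 1.62, 2.0 and 1.5 with E2 in AF2 WT, from −1.54 to −0.88 on placebo. In MISS WT it stood at 0.46, 0.55, 0.33 and −0.82 with E2 and at 0.67, −1.28, −0.04 and −0.98 on placebo, so E2 and placebo overlapped there. Its difference was −2.19 ± 0.48 (adjusted p = 0.00404). Fam205a2 rose by 2.25 ± 0.19 in AF2 WT and had a response of 0.07 ± 0.19 in MISS WT, a difference of −2.18 ± 0.27 (adjusted p = 1.21e-05). It belongs to a family of near-identical copies, and of its 4 probes 3 went the same way and 1 the other (0.88), so the copy measured is uncertain.

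Several named genes fell further in MISS WT. Nsg2, a protein of neuronal endosomes, had placebo levels of 0.56, 1.58, 0.85 and 1.17 in AF2 WT and 1.14, 1.16, 1.08 and 1.27 in MISS WT. With E2 it stood at −1.17, −1.63, −1.18 and −0.98 in AF2 WT and at −4.26, −3.80, −3.72 and −3.95 in MISS WT. The placebo groups overlapped and the E2 groups lay far apart, and the difference was −2.82 ± 0.26 (adjusted p = 4.5e-07). Trhde, the enzyme that breaks down thyrotropin-releasing hormone, fell by 1.84 and 4.59, from placebo ranges of −0.29 to 0.25 and −0.05 to 0.33 to E2 ranges of −2.44 to −1.26 and −4.58 to −4.27. Its difference was −2.75 ± 0.23 (adjusted p = 1.13e-07).

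Robo1, a receptor for Slit guidance factors, fell by 1.13 and 3.00 (difference −1.87 ± 0.23, adjusted p = 1.03e-05), and Jakmip1, which binds microtubules, by 0.58 and 2.78 (difference −2.20 ± 0.24, adjusted p = 3.38e-06). Unc93a fell by 1.80 and 3.88, with a difference of −2.08 ± 0.36 (adjusted p = 0.000478). Second probes of Nsg2, Robo1 and Jakmip1, at mean levels of −5.76, −5.59 and −4.12, gave differences of 0.39, −0.13 and 0.05 that were not called, so these genes rest on their brighter probe. Gabrd, a subunit of the receptor for GABA, was called in MISS WT alone, with responses of −0.86 and −3.00 and a difference of −2.14 ± 0.54 (adjusted p = 0.0119). Cd6, a surface protein of T cells, had responses of 0.75, not called, and −1.76 (difference −2.51 ± 0.66, adjusted p = 0.0155), and its second probe gave −0.15. Beside it, the summed level of 14 lymphocyte markers was 3.07 to 4.17 on MISS WT placebo arrays and 2.64 to 3.06 on the other 12, the part of which in the Cd6 result was not tested. Slc5a11, an inositol transporter, had a difference of −2.31 ± 0.71 (adjusted p = 0.0379), and that call was lost in 10 of the 16 fits with 1 array left out, with adjusted p of up to 0.0901. A dimmer Slc5a11 probe gave −0.815 without a call.

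Glutathione transferases, which conjugate glutathione to reactive compounds, were called in the difference only towards a more negative response in MISS WT. This family was chosen after its values had been seen, so its count is a description. Of 21 members tested, 9 were more negative in MISS WT and 0 more positive, with a median difference of −0.635, beside 3.11% and 6.37% of all genes and a median of 0.11, and 11 fell in AF2 WT and 15 in MISS WT. Under the other scalings 10 to 12 were more negative and 0 more positive. Gstk1, the mitochondrial and peroxisomal member, had placebo levels of 1.39, 1.53, 1.55 and 1.63 in AF2 WT and 2.03, 1.83, 1.95 and 2.0 in MISS WT. Its E2 levels were 0.48, 0.34, 0.40 and 0.54 in AF2 WT and −0.22, −0.16, −0.30 and −0.06 in MISS WT. MISS WT was thus higher without hormone and lower with it, with no overlap at either end, and the difference was −1.05 ± 0.12 (adjusted p = 8.18e-06).

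The other called members were Gstm1, Gstm2, Gstm4 and Gstm7 of the mu class, Gstt1, Gstt2 and Gstt3 of the theta class and Gsta4 of the alpha class, with differences from −1.84 (Gstm7) to −0.63 (Gsta4). Gstm2 and Gstm7 were called as falling in MISS WT alone, with responses of −0.18 and −0.657 in AF2 WT that were not called. The call of Gstm2 in the difference was lost in the fit of the 16 wild-type arrays alone (adjusted p = 0.0616). The call of Gstm7 in the difference (adjusted p = 0.04) was lost without any of 8 arrays: replicate 1 or 3 of MISS WT placebo, 2 or 3 of MISS WT E2, 2 or 4 of AF2 WT placebo and 2 or 4 of AF2 WT E2, with adjusted p of 0.0681 to 0.0992. The mu-class genes are near-identical neighbours, and the probe that represents Gstm1 is placed on chromosome 5 by the array annotation while RefSeq has the gene on 3, so which copy was measured is uncertain. Second probes of Gstm4 and Gstt1 were not called, at −0.40 and −0.20. The theta genes lie in the same megabase of chromosome 10 (75 Mb, mm9). There 8 of 27 tested genes were more negative in MISS WT and 0 more positive, beside 3.11% and 6.37% of all genes. The 8 include Gstt1, Gstt2 and Gstt3. Like the family, this megabase was named after its values had been seen, so its count is a description.

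Genes of cell division, whose wave comes later than 6 h, showed 5 calls, all with a more negative response in MISS WT. Of 24 DNA replication genes 2 were more negative and 0 more positive, and of 17 mitosis genes 3 were more negative and 0 more positive, beside 3.11% and 6.37% of all genes. On the placebo arrays 4 mitosis genes were higher and 0 lower in MISS WT, beside 3.04% and 8.6% of all genes. With E2, 0 were higher and 1 lower, beside 8.9% and 6.9%. The median mitosis gene was higher in MISS WT by 0.44 on placebo arrays and by 0.10 on E2 arrays. Mcm7, a subunit of the replicative helicase, fell from 3.39 to 3.58 on placebo to 2.58 to 2.78 with E2 in AF2 WT and from 3.34 to 3.93 to 1.87 to 2.07 in MISS WT. Its E2 groups did not overlap, and the difference was −0.82 ± 0.14 (adjusted p = 0.000472). Tpx2, which organises the mitotic spindle, rose by 2.69 and 1.42 by its brighter probe (difference −1.27 ± 0.25, adjusted p = 0.00168), and a dimmer probe gave −0.32 without a call. The calls of Gins2, Plk1 and Cdc20, at −0.63, −0.54 and −0.39, were lost in 5, 4 and 15 of the 16 fits with 1 array left out, with adjusted p of up to 0.0705, 0.0573 and 0.103.

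Secreted and vascular factors differed in named cases rather than as groups. Il11, a cytokine needed for decidualisation, had placebo levels of −3.22, −3.21, −3.50 and −3.48 in AF2 WT and −4.03, −4.01, −3.87 and −3.98 in MISS WT. With E2 it reached 0.66, 0.61, 0.34 and 0.23 in AF2 WT and 1.26, 1.28, 1.33 and 0.96 in MISS WT. MISS WT was lower without hormone and higher with it, and the difference was 1.37 ± 0.19 (adjusted p = 3.93e-05). It was the 1 call among 19 cytokines and chemokines, also beside 9.48%. Angpt2, which loosens vessel walls, was called in MISS WT alone (responses −0.04 and 1.05, difference 1.08 ± 0.17, adjusted p = 0.000168), as was Apln, a peptide that widens vessels (0.26 and 1.49, difference 1.24 ± 0.31, adjusted p = 0.0117). Vegfb fell more in MISS WT (−0.45 and −1.06, difference −0.61 ± 0.15, adjusted p = 0.00952). These were the 3 calls among 20 vascular genes, beside 9.48% of all genes called in either direction.

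Klk1, tissue kallikrein, reached 3.13 to 3.32 with E2 in AF2 WT and 3.72 to 4.17 in MISS WT, from placebo levels of −3.25 to −2.63 and −3.85 to −3.23. It rose by 6.12 and 7.35 (difference 1.23 ± 0.25, adjusted p = 0.00215). Of 13 glandular kallikreins tested, a family also chosen after its values had been seen, 12 rose in AF2 WT and 13 in MISS WT. The difference was more positive for 4 (Klk1, Klk1b5, Klk1b8 and Egfbp2) and more negative for 0, beside 6.37% and 3.11% of all genes. The copies of this family are nearly identical in sequence, so their calls are not separate measurements. The probes of Egfbp2 and Klk1b26 overlap on the chromosome (chr7:51272277-51272336 and chr7:51272272-51272331, mm9). Klk1b26 had a difference of 1.37 that was not called (adjusted p = 0.0724). Of 33 estrogen-induced uterine genes, a list that includes Klk1, Igf1 and Gdf15, 23 rose in AF2 WT and 25 in MISS WT, and the difference was more positive for 5 and more negative for 1, beside 6.37% and 3.11% of all genes. The 5 became 1 without MISS WT placebo replicate 1 and 2 with quantile normalization. Aqp3, a water and glycerol channel, rose by 1.82 and 2.95 (difference 1.13 ± 0.29, adjusted p = 0.0148).

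In the Wnt pathway, which shapes uterine glands and epithelium, 3 of 23 genes were more positive and 1 more negative, beside 6.37% and 3.11% of all genes. Fzd1, a Wnt receptor, fell by 2.88 in AF2 WT and by 1.97 in MISS WT (difference 0.91 ± 0.18, adjusted p = 0.00209). Nkd1, an inhibitor induced by the pathway, fell in AF2 WT alone (−1.08 and −0.15, difference 0.93 ± 0.25, adjusted p = 0.0196, and 0.0774 on the 16 wild-type arrays alone). A second Nkd1 probe gave a difference of 0.53 without a call. Lgr5, a receptor for R-spondins that marks stem cells in other tissues, fell by 1.23 and by 2.0 (difference −0.78 ± 0.19, adjusted p = 0.0106). The third more positive gene was Wnt7a, an epithelial Wnt, at 0.97, whose call was lost without AF2 WT E2 replicate 4 (adjusted p = 0.0528). Cyp26a1, which breaks down retinoic acid, was dim, with a mean level of −3.28. It had fitted falls of 1.69 and 3.43 and a difference of −1.73 ± 0.40 (adjusted p = 0.00711). Its call was lost with normexp background correction (adjusted p = 0.278) and the authors' normalized values (adjusted p = 0.116). Dhcr7, the last enzyme of cholesterol synthesis, was called in MISS WT alone (−0.18 and 0.77, difference 0.94 ± 0.20, adjusted p = 0.00347). It was the 1 call in the difference among 22 genes of that pathway, beside 9.48% of all genes.

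The summed level of stromal markers fell with E2 in both lines, while those of smooth muscle and of epithelium overlapped between all groups. In bulk tissue, fewer cells of a type and less RNA per cell cannot be told apart. Of 15 stromal markers, 12 fell in AF2 WT and 7 in MISS WT, with 0 and 1 rising. Among all genes 30% and 27.1% fell, and 27.6% and 35.1% rose. Their summed level was 9.19 to 9.45 on placebo and 8.37 to 8.67 with E2 in AF2 WT, and 9.31 to 9.67 and 8.58 to 8.74 in MISS WT, so both lines fell. The difference was more positive for Hand2 and Hoxa11 and more negative for 0, beside 6.37% and 3.11% of all genes. Hand2, a transcription factor of the stroma under progesterone, had E2 levels of 0.86, 1.35, 0.78 and 1.08 in AF2 WT and 1.42, 1.44, 1.48 and 1.59 in MISS WT, from placebo levels of 1.51 to 1.92 and 1.15 to 1.45. It fell in AF2 WT (−0.75) and was not called in MISS WT (0.15), with a difference of 0.90 ± 0.17 (adjusted p = 0.00147). Hoxa11, a patterning factor needed for implantation, behaved likewise (−0.67 and 0.30, difference 0.96 ± 0.22, adjusted p = 0.00689).

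Of 14 smooth muscle markers, 1 rose in AF2 WT and 8 in MISS WT, beside 27.6% and 35.1% of all genes. In the other direction 3 and 2 fell, beside 30% and 27.1%. The median difference of the 14 was 0.43, against 0.11 for all genes, and by slide it was 0.76, −0.20, 0.34 and 0.64. The difference was called for 1 of the 14, Synpo2, at 0.82, beside 9.48% of all genes. That call rested on 1 of 3 probes and was lost in 9 of the 16 fits with 1 array left out (adjusted p of up to 0.0782). In those fits 0 to 5 of the 14 were called more positive and 0 more negative. The summed level spanned 9.36 to 10.5 with overlap of all groups. Epithelial markers had summed levels of 7.40 to 7.94 on the 16 arrays, again with overlap of all groups. The difference was more positive for 2 of the 18, Muc1 at 0.74 and Ehf at 0.73, and more negative for 0, beside 6.37% and 3.11% of all genes. These calls were lost in 5 and 10 of the 16 fits with 1 array left out (adjusted p of up to 0.0779 and 0.0940). A second Ehf probe gave a difference of 0.44 without a call. All markers of epithelium, stroma and smooth muscle were well above background on at least 1 array of each group. The summed level of 12 macrophage markers was 6.10 to 6.37 on placebo and 5.52 to 5.89 with E2 in AF2 WT. In MISS WT it was 5.84 to 6.67 and 5.77 to 6.06, with overlap. On the placebo arrays 5 of the 12 were higher and 1 lower in MISS WT, beside 3.04% and 8.6% of all genes. The summed level of 11 granulocyte markers was 7.75 to 8.17 on placebo and 8.03 to 8.32 with E2 in AF2 WT. In MISS WT it was 7.56 to 7.69 and 7.95 to 8.31, without overlap. Of these macrophage and granulocyte markers, 0 were called in the difference, beside 9.48% of all genes. The summed level of 9 adipocyte markers ranged from 2.89 to 6.95 between arrays with no order by group. Here too 0 were called, beside the same 9.48%.

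A second class of differences lay on the placebo arrays. Between the untreated lines, 822 genes were higher and 2327 lower in MISS WT (3.04% and 8.6%), and between the E2 arrays 2408 were higher and 1867 lower (8.9% and 6.9%). The placebo count was 1928 in both directions together without AF2 WT placebo replicate 3, against 3149 with all arrays. All 302 genes that fell in AF2 WT and rose in MISS WT were called in the difference, and 92 of the 314 genes with opposite calls had a mean level above −2. The clearest of these converged on E2 from different placebo levels. Ciita, the master regulator of MHC class II genes, had placebo levels of −0.37, −0.43, 0.14 and −0.12 in AF2 WT and −3.09, −3.45, −3.26 and −3.00 in MISS WT. With E2 it stood at −1.85, −1.60 and −1.55 on slides 1, 3 and 4 in AF2 WT and at −1.14, −1.88, −1.37 and −2.21 in MISS WT. The AF2 WT E2 value of slide 2 carried an outlier mark and was left out. The placebo groups lay apart and the E2 groups overlapped, and the responses of −1.47 and 1.56 differed by 3.03 ± 0.43 (adjusted p = 7.52e-05).

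Zfp488, a zinc-finger repressor, showed the same pattern at a higher level. Its placebo levels were 3.00, 2.83, 3.17 and 2.43 in AF2 WT and 1.14, 1.09, 1.25 and 1.51 in MISS WT, and its E2 levels were 1.75, 2.13, 2.09 and 1.88 and 2.29, 1.87, 2.34 and 1.73. The E2 groups overlapped, and the difference was 1.70 ± 0.23 (adjusted p = 4.09e-05). Acot3, a peroxisomal acyl-CoA thioesterase (−0.79 and 1.25), Cbln2, a synapse organiser (−1.0 and 1.42), Proz, a plasma protein that inhibits coagulation (−0.83 and 1.33), and Usp17la, a deubiquitinase (−1.11 and 1.04), were also called in opposite directions, with placebo levels lower in MISS WT by 2.31 to 2.83. Usp17la has near-identical copies, so the copy measured is uncertain. A bright probe named Ulk3 gave −0.88 and 0.87, but the annotation places it on chromosome 15 while RefSeq has Ulk3 on 9, and a second probe gave −0.05. Efna2 and Tssk5 had differences of 2.13 ± 0.51 and 2.77 ± 0.77 (adjusted p = 0.00821 and 0.0228), with the AF2 WT placebo array of slide 4 at −1.73 and −1.65, far below its replicates. The call of Tssk5 was lost without AF2 WT placebo replicate 1 or 3, MISS WT E2 replicate 1 or AF2 WT E2 replicate 4 (adjusted p of up to 0.061).

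The largest differences at any level were of this kind and rested on dim probes. Pramel48, Tmc1, Slco6b1, Mei4 and Atp13a4 had fitted differences of 6.12, 5.95, 4.85, 4.54 and 4.44. On the MISS WT placebo arrays the first 4 were not well above background on any array and Atp13a4 was on 1, so fitted values there are not measured levels. The bounded changes were a rise of at least 4.06-fold for Pramel48, 1.39-fold for Tmc1, 1.03-fold for Slco6b1 and 3.51-fold for Mei4 in MISS WT. In AF2 WT the falls of Tmc1 and Atp13a4 were at least 3.71-fold and 3.70-fold. In the negative direction, Sox1ot and Caps2 were not well above background on any MISS WT E2 array, and fell there by at least 45.9-fold and 5.17-fold, while their responses in AF2 WT were −3.23 and −1.21. A second Sox1ot probe gave a difference of 0.19. With normexp background correction the calls of Sox1ot, Caps2 and Atp13a4 were lost (adjusted p = 0.0688, 0.859 and 0.0541). That of Atp13a4 was also lost without MISS WT E2 replicate 1, AF2 WT placebo replicate 3 or AF2 WT E2 replicate 4 (adjusted p of up to 0.0546).

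Olfactory, vomeronasal, taste and trace amine receptors, which the uterus is not known to use and which serve here as genes near background, followed the placebo pattern. This family was chosen after its values had been seen. Of 364 tested, 59 (16.2%) were more positive and 2 more negative in MISS WT, beside 6.37% and 3.11% of all genes. On the placebo arrays 2 were higher and 103 lower in MISS WT, beside 3.04% and 8.6% of all genes. With E2, 6 were higher and 4 lower, beside 8.9% and 6.9% of all genes. Their median level was −4.46 to −4.01 on AF2 WT placebo arrays, −4.90 to −4.64 on MISS WT placebo arrays, −4.73 to −4.37 on AF2 WT E2 arrays and −4.57 to −4.22 on MISS WT E2 arrays. The placebo ranges of the lines did not overlap. The 75th percentile that sets the level was 569 to 820 intensity units on AF2 WT placebo arrays and 791 to 1042 on MISS WT placebo arrays. The part of this percentile in the shift was not tested. Nor was the part of the shift in the placebo-end calls of other dim genes.

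Genes known to differ between the substrains were compared last. Nnt, which is deleted in part in C57BL/6J, had placebo levels of 2.25, 2.40, 2.13 and 2.36 in AF2 WT and 3.17, 3.54, 3.19 and 3.37 in MISS WT. With E2 it had 1.78, 1.90, 1.81 and 1.62 and 2.80, 2.84, 2.84 and 3.05. MISS WT was higher on every array, by 1.04 on placebo (adjusted p = 4.5e-08), and the difference of responses was 0.07 ± 0.13 (adjusted p = 0.811). Wdfy1 was higher in MISS WT by 0.98 and Entpd4 lower by 0.91 on placebo, also without a call in the difference. Of 9 such genes tested, 1 was called in the difference, beside 9.48% of all genes: Cyfip2, a regulator of actin, fell by 0.50 and 1.15, a difference of −0.65 ± 0.15 (adjusted p = 0.0079).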

How the data were processed

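RNA from whole uteri was labelled with Cy3 and hybridised to 1-colour Agilent arrays, and the submitters' processing notes name limma and, for the scans, version 10.10.1.1 of Agilent Feature Extraction. The deposited intensity values, per the file headers, are gProcessedSignal, already background-subtracted by the software, with gMeanSignal and gBGMedianSignal used for an alternative. Other deposited columns are 0 or 1 marks for outliers, saturation and signal well above background. The deposited table of log2 values by the authors holds 43753 probes with a column median of 7.5627 in each array. Its columns each correlated best with their own array, and its exact normalization is not given in the sources used here.

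Each array's 75th percentile of log2 signal was subtracted. Control spots and outlier-marked spots were left out and spots of a probe averaged. A probe was kept, 40323 of 55681 in all, if all arrays of 1 group or more had it well above background, and each of 27047 genes was represented by its brightest probe. Through accessions 27235 probes were matched to RefSeq and 2838 names changed. One model with 8 group means was fitted over 31 arrays with limma 3.58.1 in R 4.3.3 (lmFit and eBayes, Benjamini-Hochberg over all genes), and it was tested on simulated data. Probe positions are mm9, promoters GRCm38.p6. Alternatives were the background correction, scaling, dim-probe filter, all probes, slide as a block, 16 arrays alone, array weights and leaving out each array.

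Named genes were the 12 most positive and 12 most negative differences with a level above −2, the same sign on all 4 slides and a call in at least 1 wild type, and the 8 largest shared increases and 8 decreases with the interval within 2-fold. Added were up to 8 genes with opposite calls, up to 3 per list by p, 12 textbook genes and the 5 largest differences in each direction at any level. A further 22 genes and the families were named after their values were seen. Members and lists were chosen with earlier results of these data known.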

Additional observations from a re-analysis of the deposited data

Results flagged for a closer look

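The E2 response of MISS WT minus that of AF2 WT was tested as an interaction in limma and called at an adjusted p under 0.05 for the named genes given here, each value being a log2 difference. The values rest on 4 arrays per group, and the line and the substrain cannot be told apart. Fitted values of Pramel48 6.12, Tmc1 5.95, Slco6b1 4.85, Mei4 4.54 and Atp13a4 4.44 rest on probes that were well above background on at most 1 of the 4 MISS WT placebo arrays, so they are not measured differences and have no order. Those of Sox1ot −3.65 and Caps2 −2.93 likewise rest on probes well above background on 0 MISS WT E2 arrays. More positive differences were P4ha2 3.06, Ciita 3.03, Tssk5 2.77 and Nkpd1 2.47. Further down the order came Col26a1 2.47, Cbln2 2.41, Gdnf 2.34, Kalrn 2.22, Proz 2.16, Usp17la 2.15, Efna2 2.13, Atp12a 2.09 and Efnb3 2.08. After these stood Acot3 2.04, Ulk3 1.75, Zfp488 1.70, Il11 1.37, Aldh1l2 1.25, Mthfd1l 1.25, Egfbp2 1.24, Apln 1.24 and Klk1 1.23. Next were Klk1b5 1.19, Klk1b8 1.19, Aqp3 1.13, Angpt2 1.08, Wnt7a 0.97, Hoxa11 0.96, Dnajb9 0.95, Dhcr7 0.94 and Nkd1 0.93. The following were Fzd1 0.91, Hand2 0.90, Manf 0.82, Synpo2 0.82, Creld2 0.81, Muc1 0.74, Ehf 0.73, Psph 0.72, Nars 0.69, Igf1 0.60 and Hspa5 0.59. The smallest were Mars1 0.54, Myc 0.50, Dnajc3 0.46 and P4hb 0.46.

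More negative differences were found as well. The most negative of those measured were Chac1 −2.91, Nsg2 −2.82, Trhde −2.75, Cd6 −2.51, Slc5a11 −2.31, Jakmip1 −2.20 and Krt23 −2.19. Next in order came Fam205a2 −2.18, Gabrd −2.14, Unc93a −2.08, Robo1 −1.87, Gstm7 −1.84, Cyp26a1 −1.73 (a dim probe), Gdf15 −1.52, Tpx2 −1.27 and Gstm4 −1.10. These were followed by Gstk1 −1.05, Gstt3 −1.02, Gstm2 −1.01, Sesn2 −0.93, Gstm1 −0.87, Gstt2 −0.82, Mcm7 −0.82, Lgr5 −0.78 and Gstt1 −0.68. Smaller in size were Cyfip2 −0.65, Gsta4 −0.63, Gins2 −0.63, Vegfb −0.61, Plk1 −0.54, Cebpb −0.53 and Cdc20 −0.39.

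In 23 of 452 groups of 4 arrays checked over the named genes, 1 array lay far from its 3 replicates in level (log2 signal relative to the 75th percentile of the array). Chance flags about 1 in 20 groups, and 5.09% were found. On the AF2 WT E2 array of slide 3, the level was 0.41 for Gstt3. On the AF2 WT E2 array of slide 4, the level was −1.91 for Gdnf, 5.40 for Ngfr, 4.11 for Nars, 3.21 for Entpd4, 3.65 for Esr1 and −1.52 for Muc1. On the AF2 WT placebo array of slide 2, the level was 3.03 for Creld2, −1.66 for Cyp26a1 and 1.24 for Gstm4. On the AF2 WT placebo array of slide 3, the level was 1.79 for Vegfb. On the AF2 WT placebo array of slide 4, the level was −6.28 for Atp13a4. On the MISS WT E2 array of slide 1, the level was 4.14 for Ulk3. On the MISS WT E2 array of slide 3, the level was 3.46 for Gstm2. On the MISS WT E2 array of slide 4, the level was −0.43 for Gdnf, −0.82 for Krt23, −5.13 for Pabpc4l and 3.05 for Nnt. On the MISS WT placebo array of slide 2, the level was −1.62 for Atp12a, 7.86 for C3 and −2.70 for Egfbp2. On the MISS WT placebo array of slide 4, the level was −2.26 for Cbln2 and −0.98 for Acot3.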

How the results depend on the processing

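No named gene with a called difference changed sign under any alternative run, while genes without a call did, such as Mthfd2, Greb1 and C3 with 1 array left out. With quantile normalization the split of calls turned, with 1051 more positive and 1098 more negative genes. With slide as a block, 4175 genes were more positive and 1640 more negative in MISS WT, 613 had opposite calls, and 5643 differed on placebo and 7364 on E2 arrays. Adding the array row as a term, an alternative chosen after seeing the data, gave 4234, 1644, 630, 5737 and 7360 in the same order. Fitting the 16 wild-type arrays alone gave 1134 more positive and 510 more negative genes, and with slide as a block as well 495 opposite calls. The authors' normalized values gave 1081 more positive genes. Array quality weights gave 3289 more positive genes, 558 opposite calls and 5503 placebo differences. Normexp background correction gave 5405 placebo differences, and a strict filter on dim probes 190 opposite calls. Among genes with a level above −2, a restriction also chosen after seeing the data, 928 were more positive, 109 had opposite calls and 1454 differed on placebo. With each array left out in turn, 1277 to 1971 genes were more positive and 593 to 896 more negative. In the same fits 14781 to 15748 genes were called in AF2 WT, 15764 to 16994 in MISS WT, 12466 to 12869 in the same direction and 232 to 390 in opposite directions. Placebo calls ranged from 1928 to 3603, calls on E2 arrays from 3339 to 4518 and the score difference from 0.448 to 0.588. Over single named genes, with or without a call in the main fit, 104 of the results under other settings lost a call and 65 gained one. The other 1868 had the same status as in the main fit, called or not called. In the fits with 1 array left out, 190 results lost a call, 34 gained one and 2544 had the same status. No paired analysis was possible because the replicate numbers follow the order of the samples; matching was by slide instead, which holds 1 array of each group, and is the block in the fits above. Dim probes limit what can be measured at levels below −2, and precision is bounded by having 4 arrays in a group. The response score was not recomputed in the fits of the 16 wild-type arrays, which leave out the MISS mutant arrays that choose its genes.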
